A study of Macaca fascicularis with 64 samples.

Results

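The genes of dopamine and serotonin metabolism followed through the 4 endocrine cell types of the monkey islet were 9 in number: TH, TPH1, TPH2, DDC, SLC18A1, SLC18A2, MAOA, MAOB and FEV. Of the 9 genes, 8 have a row among the 21041 macaque genes of the count tables. No row carries the symbol MAOA, so MAOA has no value here. The genes were chosen by what they do, with their levels by cell type already known. TH, DDC and FEV were selected on those levels, so their differences between cell types are given as description and without a test. Single islet cells came from 16 healthy cynomolgus monkeys (Macaca fascicularis). The 8 young and the 8 old monkeys each comprised 4 females and 4 males. No treatment or genetic change is named for any group. Islets were picked by hand from the tail of the pancreas and dissociated, debris was removed by fluorescence-activated cell sorting after propidium iodide staining, and single cells were drawn by mouth pipette. The 64 libraries are 4 per monkey, and tissue was collected over 16 days, so day and monkey cannot be told apart.

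Dopamine and serotonin are each made in 2 enzymatic steps. Tyrosine hydroxylase (TH) makes L-DOPA from tyrosine, tryptophan hydroxylase (TPH1 in peripheral tissue, TPH2 in neurons) makes 5-hydroxytryptophan from tryptophan, and aromatic L-amino acid decarboxylase (DDC) turns these products into dopamine and serotonin. The vesicular monoamine transporters, VMAT1 (SLC18A1) and VMAT2 (SLC18A2), load the amines into secretory granules, and the monoamine oxidases (MAOA and MAOB) break them down. FEV, also called PET1, is an ETS transcription factor known from serotonergic neurons and from endocrine precursors of the pancreas. Islet cells are known to take up amine precursors, and dopamine is known to restrain insulin secretion through its receptors.

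Of 6141 cells in the tables, 5908 had over 800 genes and over 10000 UMIs (unique molecular identifiers, which count each captured transcript once). Cells were typed by the highest of the 4 hormone genes, GCG for α-cells, INS for β-cells, SST for δ-cells and PPY for PP-cells. This gave 4503 α-cells, 1219 β-cells, 112 δ-cells and 74 PP-cells. The authors also filtered cells by mapping rate and counted some cells as outside these types. Neither was done here, so every kept cell was given 1 of the 4 types. Libraries held 3725637 to 9436464 UMIs and monkeys 338 to 381 cells. The kept cell with the fewest UMIs had 10016. The median depth was 64894 UMIs in α-cells, 74425 in β-cells, 43776 in δ-cells and 45773 in PP-cells, and it was 64355 in young and 67360 in old cells. All 16 monkeys had at least 5 α-cells and 5 β-cells, 11 monkeys had at least 5 δ-cells (7 young, 4 old) and 6 had at least 5 PP-cells (2 young, 4 old). The summed β-cell markers reached 50694 to 93062 CPM (UMIs of the genes per 1000000 UMIs of all macaque genes) in the β-cells of single monkeys and 2070 to 14173 CPM in their α-cells. Those lists hold the hormones that set the types, so they describe the types and do not test them. The highest hormone was under 2 times the next in 87 α-cells, 130 β-cells, 11 δ-cells and 16 PP-cells. Hormone transcripts were found across types. INS in α-cells stood at a median of 10.1% of its level in the β-cells of the same monkey, and GCG in β-cells at 27.7% of its level in α-cells. The libraries shared 1 set of 96 cell barcodes, of which 93 occurred in all 64 libraries.

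TH, the rate-limiting enzyme of catecholamine synthesis, was a β-cell transcript in these islets. In UMIs summed per monkey, TH stood in β-cells at 32.9 CPM in the lowest monkey (young female 3), at a median of 190 CPM and at 1098 CPM in the highest (old female 4), with a mean of 274 ± 268 CPM (SD, n = 16). In α-cells it ranged from 0.146 CPM (young female 3) through a median of 2.56 to 36.3 CPM (old female 4), with a mean of 5.03 ± 8.99 CPM (SD, n = 16). Every monkey had more TH in its β-cells than in its α-cells, by a mean log2 ratio of 5.65 ± 0.95 (SD, n = 16, pseudocount 1 CPM), although the highest α-cell value lay above the lowest β-cell value. In δ-cells TH ran from 0 CPM in 2 monkeys through a median of 16.4 to 165 CPM in young male 1 (mean 31.9 ± 49.6 CPM, SD, n = 11), and in PP-cells from 0 through 3.46 to 40.4 CPM (mean 9.44 ± 15.4 CPM, SD, n = 6). TH was lower in δ-cells than in β-cells in 11 of 11 monkeys and lower in PP-cells than in β-cells in 6 of 6. In order of mean level TH stood highest in β-cells, then in δ-cells, PP-cells and α-cells, and the ranges of the latter 3 types overlapped.

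**Figure D1:**
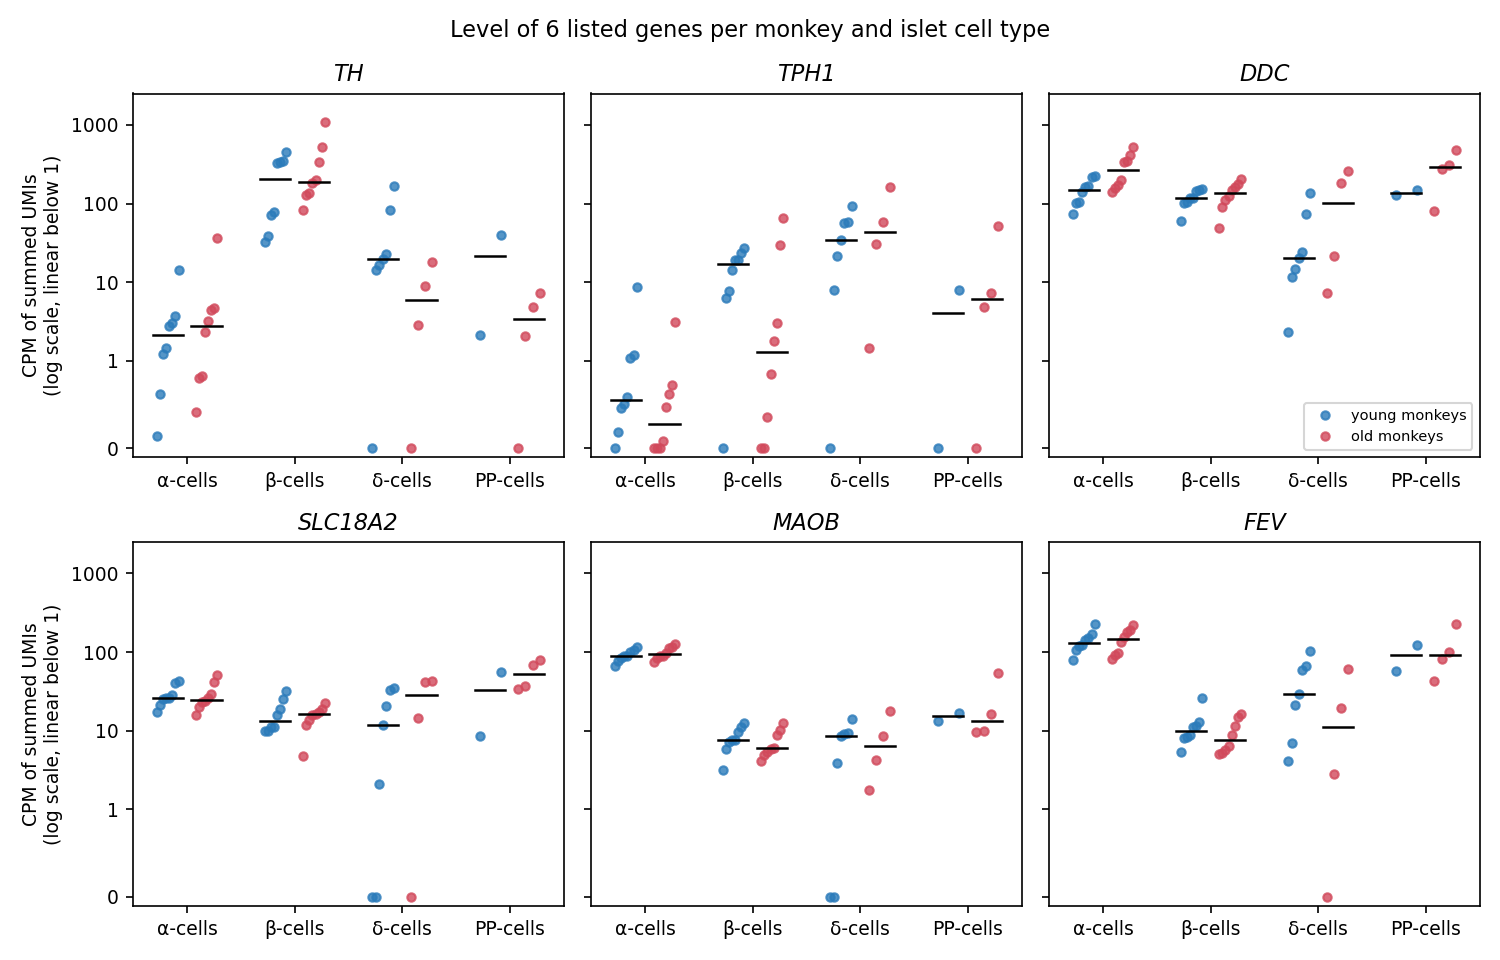
Levels in CPM (log10 axis above 1 CPM, linear below) of the 6 listed genes with enough UMIs to compare, by cell type, with 1 point per monkey for each type with at least 5 cells, young monkeys in blue, old monkeys in red and the median of each age group as a line. TH has its highest medians in β-cells, MAOB and FEV have theirs in α-cells, and TPH1 reaches its highest median in δ-cells.

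TH-positive β-cells were found in all 16 monkeys. At least 1 TH UMI was counted in 945 of 1219 β-cells, or 77.5% (95% exact binomial interval 75.1 to 79.8%, which covers counting error only), at a median depth of 74425 UMIs. In α-cells, which serve as the background type, 14.4% of cells (13.4 to 15.4%) had a TH UMI at a median depth of 64894 UMIs. With every cell thinned to 10000 UMIs, the shares were 63.1% of β-cells and 3.09% of α-cells. Just at the boundary, 274 β-cells had 0 TH UMIs, 63 had 1 and 39 had 2. At least 3 TH UMIs were counted in 843 β-cells (69.2%), again in 16 monkeys, and in 109 α-cells (2.42%). The median was 11 TH UMIs per β-cell and 0 per α-cell, the 90th percentile in β-cells was 97, and the highest cell held 473. β-cells held 96.3% of all TH UMIs.

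The share of TH-positive β-cells differed widely between individuals. It was lowest in young male 3, where 7 of 44 β-cells (15.9%) had a TH UMI at a median β-cell depth of 30099 UMIs. It was highest in old male 3, where 75 of 75 β-cells were positive, followed by old female 4 with 193 of 194 (99.5%) and old male 2 with 66 of 67 (98.5%). In 14 of 16 monkeys at least 50% of β-cells were positive, and the other two were young male 3 and young female 1 (28 of 57, 49.1%). The 4 monkeys with most positive cells held 47.9% of them, and old female 4 alone held 20.4%. Libraries of 1 monkey also differed, where those with at least 5 β-cells were counted. Shares ran from 14.3 to 91.4% over 4 libraries of old female 2 (69 β-cells) and from 29.0 to 76.9% over 4 of old female 1 (145 β-cells). They ran from 20.0 to 80.0% over 3 libraries of young female 3 (28 β-cells). Some of these shares rest on few cells. In old female 4, old male 2 and old male 3 the libraries all lay at 95% or above.

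**Figure D2:**
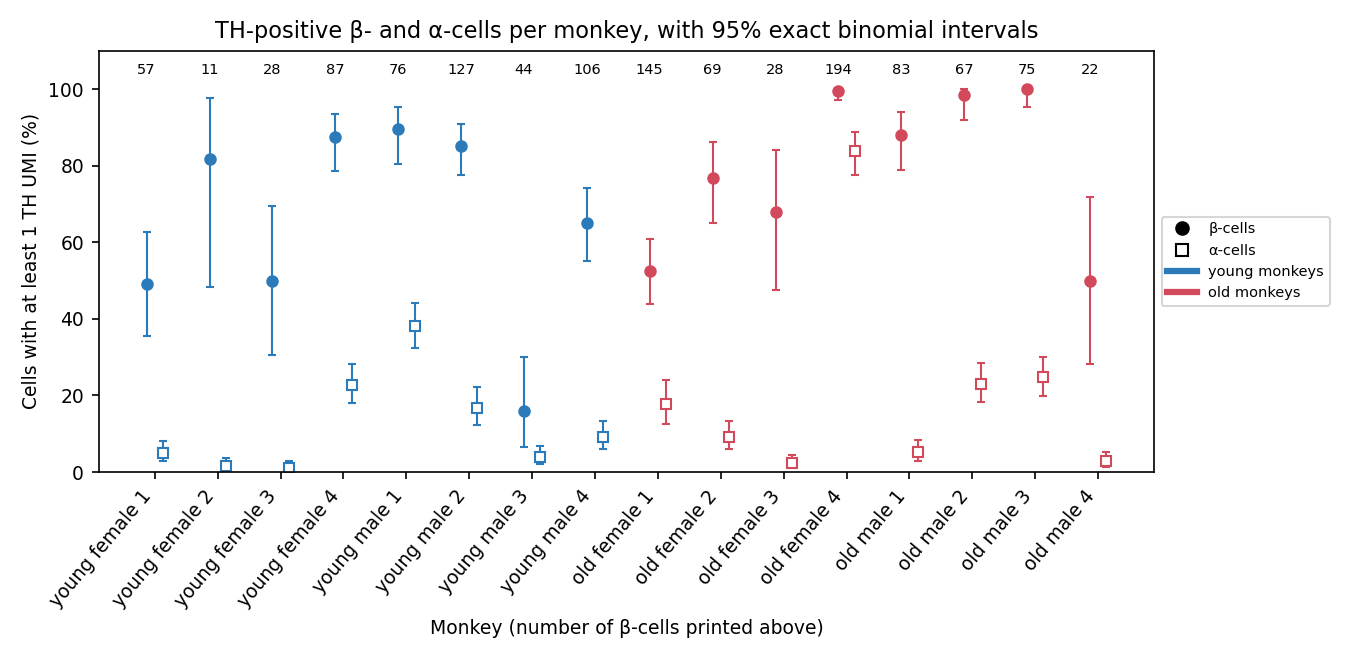
Percent of β-cells with at least 1 TH UMI in each of the 16 monkeys, with the exact 95% binomial interval and the number of β-cells, beside the share of α-cells of the same monkey. Shares in β-cells run from 15.9% in young male 3 to 100% in old male 3, and the share in α-cells stands apart in old female 4 at 83.7%.

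The number of transcripts per cell was less evenly spread than the share of cells. Old female 4 contributed 51.5% of the TH UMIs of all β-cells. Its β-cells had a median of 83 TH UMIs, those of old male 2 a median of 43, and those of young female 1 and young male 3 a median of 0. At least 100 TH UMIs were found in 116 β-cells of 8 monkeys, of which 83 came from old female 4, and in 0 α-cells. Without old female 4, an alternative chosen after seeing the data, the share of TH-positive β-cells was 73.4% (70.5 to 76.1%) and the level over all β-cells fell from 399 to 238 CPM.

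**Figure D3:**
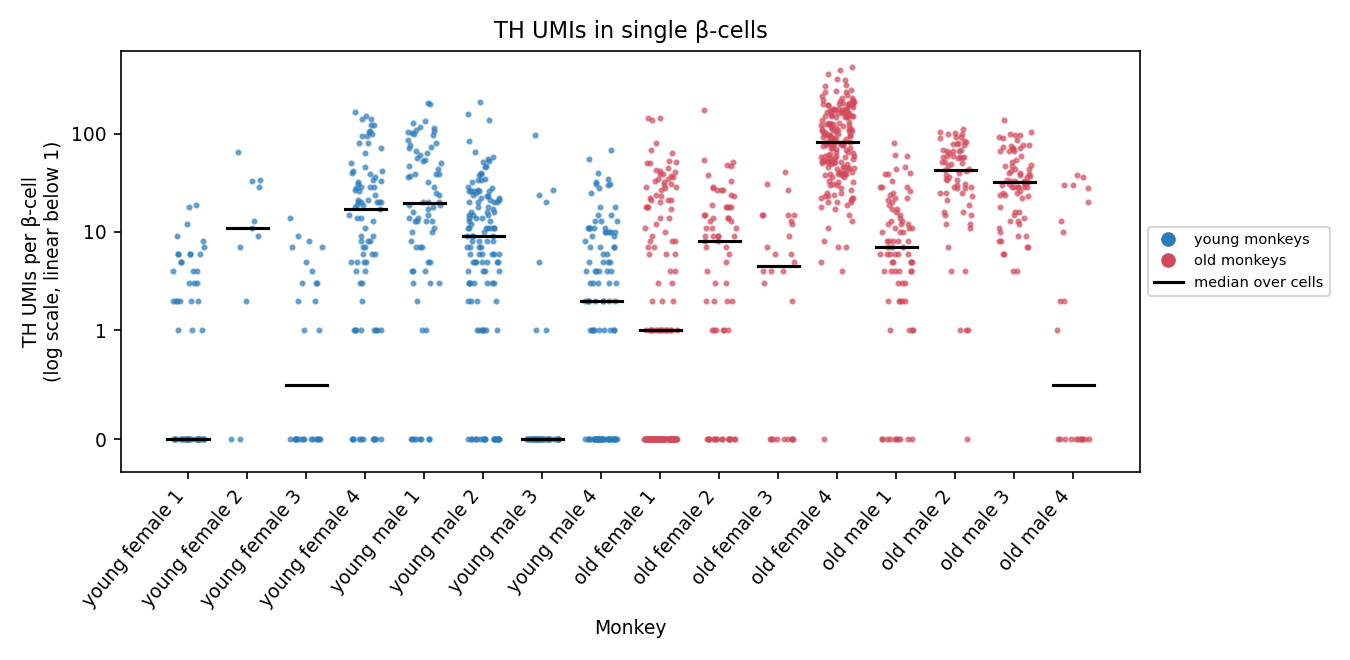
TH UMIs of single β-cells in each of the 16 monkeys on an axis that is log10 above 1 and linear below, young monkeys in blue and old ones in red, with the median per monkey as a line. Old female 4 has the highest median, at 83 UMIs, and monkeys with a median of 0 still hold single cells with several TH UMIs.

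TH in α-cells was set beside the β-cell markers in α-cells. The share of α-cells with a TH UMI was 83.7% in old female 4 and 38.2% in young male 1. Relative to the β-cells of the same monkey, TH in α-cells stood between 0.324% and 7.20%, with a median of 1.02%. For IAPP, the amyloid polypeptide that β-cells release with insulin, this ratio ran from 0.480% through 1.59% to 5.30%, and for SLC2A2, the glucose transporter GLUT2, from 0.297% through 0.869% to 5.20%. In old female 4 the ratio was 3.30% for TH, 5.22% for IAPP and 3.96% for SLC2A2, and in young female 1 it was 7.20%, 5.30% and 5.20%. The other β-cell markers spread widely around TH, with medians of 0.0786% for G6PC2 (over 10 monkeys), 1.96% for PDX1, 3.56% for MAFA, 10.1% for INS, 27.5% for NKX6-1 and 121% for ADCYAP1 (over 4 monkeys). The part of β-cell RNA in the TH counts of α-cells was not tested.

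**Figure D4:**
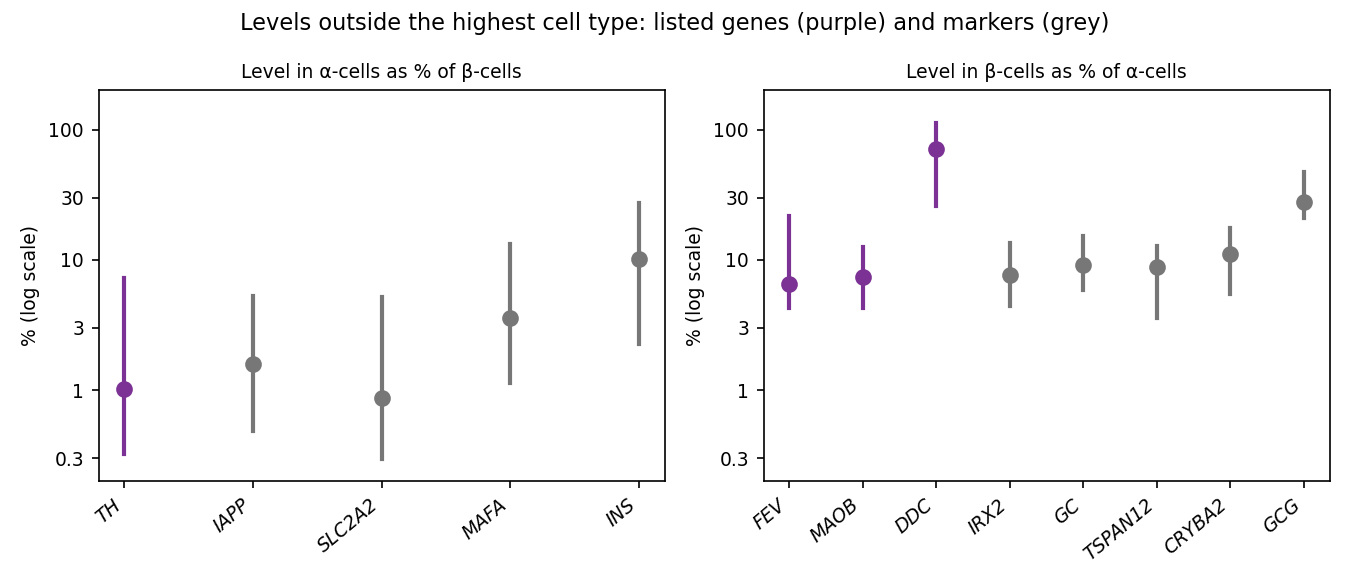
Level in one cell type as a percent of the level in the other type of the same monkey (log10 axis), with the median over 16 monkeys as a point and the lowest to highest monkey as a bar, for listed genes in purple and, in grey, for 4 of the 8 β-cell markers and 5 of the 8 α-cell markers, on the side of the type with the higher level. TH in α-cells relative to β-cells has a median of 1.02%, between SLC2A2 and IAPP and below MAFA and INS, and FEV and MAOB in β-cells relative to α-cells have medians of 6.56% and 7.32%, below the 5 plotted α-cell markers.

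Old and young monkeys did not differ detectably in how many β-cells carried TH. The share per monkey was 79.1 ± 20.7% (SD, n = 8) in old and 65.5 ± 25.8% (SD, n = 8) in young monkeys, a difference of 13.7 percentage points (exact permutation test over monkeys, two-sided, p = 0.266). In cell numbers these are 566 of 683 β-cells in old and 379 of 536 in young monkeys. In α-cells the share was 21.1 ± 26.8% (SD, n = 8) in old and 12.3 ± 12.9% (SD, n = 8) in young monkeys, a difference of 8.77 percentage points (exact permutation test, two-sided, p = 0.497). Without old female 4 the α-cell difference was -0.173 percentage points. The β-cell difference was 6.57 percentage points without young male 3.

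TH-positive and TH-negative β-cells were compared within 12 monkeys that had at least 5 of each. Depth moved with the split: TH-positive β-cells had a median of 80659 UMIs and TH-negative ones 49050. One gene passed, 0.00878% of the 11385 tested (edgeR's quasi-likelihood test, monkey as block, Benjamini-Hochberg adjusted p under 0.05), and DESeq2 called 0, with 614 genes at an unadjusted p under 0.05. This gene was GCG, the glucagon gene, at 21918 ± 6915 CPM in TH-positive and 26432 ± 7466 CPM in TH-negative β-cells (SD, n = 12). It was lower in the TH-positive cells of 10 of 12 monkeys, by a log2 fold change of -0.36 ± 0.06 (SE, edgeR adjusted p = 0.0279). The call was lost without any 1 of old females 1, 2 and 3 or young males 1, 2 and 3, and when the deepest cells, above the 95th percentile in UMIs, were left out. It was also lost in cells whose highest hormone was at least 2 times the next, where INS was the 1 gene called. INS, named after its values were seen, was also lower in 10 of 12 monkeys, with a log2 fold change of -0.38 ± 0.07 (SE) that missed the threshold (edgeR adjusted p = 0.0727). INS passed with at least 2 TH UMIs as the threshold (edgeR adjusted p = 0.0208), under the hormone rule just given (0.00226) and in thinned cells (0.000314). It also passed with no filter on low counts, at a log2 fold change of -0.35 ± 0.02 (SE). There the standard error was smaller and the fold was not larger, so that call is not read as stronger evidence. GCG and INS also set the cell types, because a cell was typed as a β-cell only where INS was its highest hormone. That rule bounded GCG relative to INS in TH-positive and TH-negative cells alike. The adjusted p-values of GCG and INS are therefore no independent test, and their differences are given as description. With all cells thinned to 10000 UMIs, 9 genes passed, all lower in TH-positive cells in the fit: GCG, INS, the mitochondrial genes ATP6, COX2, COX3, ND2 and ND5, BOD1L1 and DLK1. Thinning also redrew the split, because TH-positive cells were those with a TH UMI left after thinning. In the usual split of 12 monkeys DLK1 was lower in TH-positive cells in 5 and higher in 4. Its medians there were 43.3 CPM in TH-positive and 37.7 CPM in TH-negative cells, and 1 TH-negative sum reached 4332 CPM. The part of depth and of the typing rule in these differences was not tested.

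None of the other listed genes separated TH-positive from TH-negative β-cells: of 5 tested, 0 passed and 0 had an unadjusted p under 0.05, and DESeq2 called 0. The log2 fold changes were 0.06 ± 0.77 for TPH1, -0.05 ± 0.22 for DDC, 0.02 ± 0.53 for SLC18A2, -0.37 ± 0.57 for MAOB and -0.22 ± 0.50 for FEV (SE, n = 12 monkeys). Mean DDC was 130 ± 45.4 CPM in TH-positive and 133 ± 58.5 CPM in TH-negative β-cells (SD, n = 12). Of the sympathetic and chromaffin cell markers, 6 of 7 have a row, and their sum was 12 UMIs in TH-positive and 10 UMIs in TH-negative β-cells. PNMT, which makes adrenaline, the autonomic regulator PHOX2A and the noradrenaline transporter SLC6A2 were at 0 in the TH-positive β-cells. The summed markers of α-cells, GCG and TTR among them, were 50652 CPM in TH-positive and 59190 CPM in TH-negative β-cells. All 7 α-cell markers tested had a log2 fold change below 0 (median -0.19). The 1 that passed was GCG, a hormone that also set the cell types. IRX2 was at 0.00, GC at -0.03 and TSPAN12 at -0.06. Of 7 β-cell markers tested, 4 lay below 0 and 3 above (median -0.02), and 0 passed. The median of all genes was 0.13.

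TPH1, the tryptophan hydroxylase of peripheral tissues, had its highest mean in δ-cells and was carried by few cells. It ran from 0 through a median of 33.9 to 160 CPM in δ-cells (mean 47.1 ± 46.9 CPM, SD, n = 11), and the highest value was that of old female 1. In β-cells it was at 0 in 3 monkeys, with a median of 6.99 and a highest value of 64.7 CPM in old female 1 (mean 13.6 ± 17.2 CPM, SD, n = 16). In α-cells it was at 0 in 4 monkeys, with a mean of 1.10 ± 2.14 CPM (SD, n = 16) and a highest value of 8.60 CPM in young male 3, where 1 cell held 109 of 153 TPH1 UMIs. TPH1 was higher in δ-cells than in α-cells in 10 of 11 monkeys and higher in β-cells than in α-cells in 12 of 16, and the ranges of the types overlapped. Against α-cells, TPH1 rose in β-cells by 3.73 ± 0.70 and in δ-cells by 5.10 ± 0.79 on the log2 scale (SE, edgeR adjusted p = 3.72e-05 and 2.7e-06). In PP-cells (mean 11.9 ± 19.6 CPM, SD, n = 6) it rose by 3.09 ± 0.99 against α-cells (SE, edgeR adjusted p = 0.0495), a call that was lost in thinned cells (1.85, adjusted p = 0.356). δ-cells and β-cells were not separated (log2 fold change 1.38 ± 0.69, SE, edgeR adjusted p = 0.169), except in thinned cells (1.70, adjusted p = 0.0254).

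A TPH1 UMI was found in 25.0% of δ-cells, 13.5% of β-cells, 6.76% of PP-cells and 2.64% of α-cells, and after thinning in 20.5%, 5.69%, 2.70% and 0.60%. Cells with at least 5 TPH1 UMIs numbered 96 in 14 monkeys and held 85.8% of the TPH1 UMIs. Of these, 68 were β-cells of 11 monkeys, 14 were δ-cells of 8 monkeys, 12 were α-cells and 2 were PP-cells, and the highest, a β-cell, held 144. TPH1 is also a mast cell gene. Of the mast cell markers, CPA3 and HDC, which makes histamine, were at 0 UMIs in those 96 cells, MS4A2 had 6 UMIs and KIT had 232. KIT was also found at 70.3 CPM over all α-cells and at 10.4 CPM over all β-cells. The part of mast cells in these TPH1 counts was not tested. TPH2, the neuronal tryptophan hydroxylase, was close to absent: 39 UMIs in 12 cells, of which 26 UMIs lay in 8 α-cells, 7 in 3 β-cells and 6 in 1 PP-cell. In δ-cells it was found in 0 of 112, which allows a share of up to 2.68% of cells with a UMI.

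DDC, the decarboxylase common to both pathways, was present in all 4 types. In α-cells it ran from 73.5 CPM (young male 4) through a median of 169 to 524 CPM (old female 1), with a mean of 217 ± 124 CPM (SD, n = 16), and in β-cells from 48.6 CPM (old male 2) through 121 to 204 CPM (old female 1), with a mean of 126 ± 41.1 CPM (SD, n = 16). In PP-cells the mean was 235 ± 145 CPM (81.5 to 473 CPM, SD, n = 6) and in δ-cells 68.1 ± 85.4 CPM (2.36 to 256 CPM, SD, n = 11). Within a monkey DDC was lower in β-cells than in α-cells in 14 of 16, lower in δ-cells than in α-cells in 11 of 11 and higher in PP-cells than in β-cells in 6 of 6, while the ranges of all 4 types overlapped. The fitted log2 fold change was -0.65 ± 0.24 for β-cells and -2.13 ± 0.32 for δ-cells against α-cells (SE). A DDC UMI was found in 85.9% of α-cells, 83.2% of β-cells, 53.6% of δ-cells and 87.8% of PP-cells, and after thinning in 60.7%, 50.4%, 25.9% and 71.6%.

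SLC18A2, which encodes VMAT2, was found in all 4 types and SLC18A1, which encodes VMAT1, in almost no cell. SLC18A2 ran from 15.8 to 50.8 CPM in α-cells (mean 28.7 ± 10.1 CPM, SD, n = 16) and from 4.84 to 32.2 CPM in β-cells (mean 16.0 ± 6.72 CPM, SD, n = 16). Its mean was 18.3 ± 17.3 CPM in δ-cells (SD, n = 11), with 3 monkeys at 0, and 47.1 ± 25.7 CPM in PP-cells (8.51 to 78.7 CPM, SD, n = 6). SLC18A2 was lower in β-cells than in α-cells in 15 of 16 monkeys, and the ranges overlapped. The β-cell difference of -0.86 ± 0.35 on the log2 scale missed the threshold (SE, edgeR adjusted p = 0.0655), and it passed by DESeq2 (adjusted p = 0.0107), in thinned cells (edgeR adjusted p = 0.0202) and in cells whose highest hormone was at least 2 times the next (edgeR adjusted p = 0.0485). Against β-cells, SLC18A2 rose in PP-cells by 1.62 ± 0.53 (SE, edgeR adjusted p = 0.0307) and was higher in 5 of 6 monkeys. SLC18A1 had 4 UMIs in all, 3 in 2 α-cells and 1 in a PP-cell. It was found in 0 of 1219 β-cells, which allows a share of up to 0.246% of cells with a UMI.

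Transcripts of several steps were found in the same β-cells. TH and DDC were both detected in 820 β-cells (67.3%), from 16 monkeys, and TH, DDC and SLC18A2 in 263 (21.6%), also from 16 monkeys. Thinned to 10000 UMIs, these shares were 32.7% and 3.54%. In α-cells TH and DDC were both found in 13.0% of cells, and after thinning in 2.06%. TPH1 and DDC were both found in 10.5% of β-cells, and with SLC18A2 added in 3.69%, from 10 monkeys. After thinning, TPH1 and DDC were both found in 2.47% of β-cells, and with SLC18A2 added in 0 of 1213. TH and TPH1 were both found in 132 β-cells (10.8%) of 12 monkeys, and after thinning in 3.38%. Taken singly, 77.5% of β-cells had a UMI of TH, 83.2% of DDC, 29.6% of SLC18A2 and 13.5% of TPH1. After thinning these were 63.1%, 50.4%, 9.73% and 5.69%. The counts above are of joint detection, which rises with depth and with the single shares. Whether the genes met in 1 cell more often than the single shares give was not tested.

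MAOB, a monoamine oxidase of the outer mitochondrial membrane, was an α-cell transcript. It ran from 66.1 to 126 CPM in α-cells (mean 94.9 ± 16.9 CPM, SD, n = 16) and from 3.22 to 12.5 CPM in β-cells (mean 7.67 ± 2.87 CPM, SD, n = 16), without overlap, and was lower in β-cells in 16 of 16 monkeys. In δ-cells the mean was 7.06 ± 5.71 CPM (0 to 18.0 CPM, SD, n = 11) and in PP-cells 20.1 ± 16.9 CPM (9.59 to 54.1 CPM, SD, n = 6), also below every α-cell value. Against α-cells, MAOB fell by 3.73 ± 0.27 in β-cells, by 4.00 ± 0.37 in δ-cells and by 2.42 ± 0.43 in PP-cells on the log2 scale (SE, edgeR adjusted p = 5.16e-16, 2.94e-12 and 0.000158). PP-cells stood above β-cells by 1.31 ± 0.40 (SE, edgeR adjusted p = 0.0187, higher in 6 of 6 monkeys), which was lost in thinned cells (adjusted p = 0.256) and in cells whose highest hormone was at least 2 times the next (adjusted p = 0.271). MAOB in β-cells stood at a median of 7.32% of its α-cell level, beside 7.70% for the α-cell factor IRX2 and 9.18% for GC, the vitamin D-binding protein. Other α-cell markers had medians of 8.87% (TSPAN12), 11.1% (CRYBA2), 27.7% (GCG), 29.2% (LOXL4) and 45.7% (TTR).

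FEV was likewise highest in α-cells and PP-cells. It ran from 80.3 to 229 CPM in α-cells (mean 141 ± 46.8 CPM, SD, n = 16) and from 43.2 to 228 CPM in PP-cells (mean 106 ± 66.4 CPM, SD, n = 6). In δ-cells it ran from 0 to 102 CPM (mean 33.9 ± 33.6 CPM, SD, n = 11) and in β-cells from 5.07 to 25.7 CPM (mean 10.4 ± 5.39 CPM, SD, n = 16), the highest β-cell value being that of young female 1. FEV was lower in β-cells than in α-cells in 16 of 16 monkeys with no overlap, and PP-cells lay on either side of α-cells in 3 monkeys each. The fitted log2 fold change was -3.93 ± 0.30 for β-cells and -0.32 ± 0.40 for PP-cells against α-cells (SE). FEV in β-cells stood at a median of 6.56% of its α-cell level. A FEV UMI was found in 75.8% of α-cells and 43.8% of β-cells, and after thinning in 51.1% and 10.1%. TH and FEV thus had their highest levels in different cell types, as did TH and MAOB.

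For the 3 genes tested between types (TPH1, SLC18A2 and MAOB), 2 passed for β-cells against α-cells, where 25.7% of all 14648 genes passed. These genes too were chosen with their levels by cell type already known. Their adjusted p-values between types are therefore no independent test, and the counts given here are description. Against α-cells 2 of 3 also passed in δ-cells, beside 22.8% of all genes, and in PP-cells, beside 6.32%. Between δ-cells and β-cells 0 of 3 passed in edgeR and in DESeq2 and 0 had an unadjusted p under 0.05, beside 18% of all genes called. Between PP-cells and β-cells 2 of 3 passed, beside 15.6%. The median log2 fold change of all genes against α-cells was -0.20 in the β-cell contrast, -0.57 in that of δ-cells and -0.49 in that of PP-cells, so the folds above are to be read relative to those shifts. DESeq2 split the calls over all genes more evenly than edgeR: for δ-cells against α-cells 1117 of 2955 were higher beside 560 of 3337 by edgeR, for PP-cells against α-cells 590 of 1358 beside 217 of 926. Against β-cells it gave 1445 of 2917 higher in δ-cells beside 727 of 2639, and 1586 of 2910 in PP-cells beside 890 of 2292. TPH2 and SLC18A1 had too few UMIs to test.

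Other genes of amine metabolism were taken from a list of 78, of which 70 have a row and 35 had enough UMIs in the fit of cell types. The list was made with earlier results of these data known, so its counts between types are description as well. In β-cells against α-cells 6 rose, 14 fell and 15 did not pass (edgeR adjusted p under 0.05), beside 25.7% of all 14648 genes called, and DESeq2 called 16 of the 35. Their median log2 fold change was -0.38 beside -0.20 for all genes. Enzymes of tetrahydrobiopterin, the cofactor that TH and TPH need, went both ways. SPR, the last enzyme of its synthesis, rose from 21.5 ± 4.35 CPM in α-cells to 47.3 ± 15.2 CPM in β-cells (log2 fold change 1.00 ± 0.29), and PCBD1, which recycles it, from 407 ± 108 to 602 ± 116 CPM (0.58 ± 0.17). GCH1, the first enzyme of its synthesis, fell from 121 ± 31.5 to 66.4 ± 20.8 CPM (-0.92 ± 0.20) and QDPR, which regenerates it, from 521 ± 154 to 191 ± 76.5 CPM (-1.54 ± 0.15; CPM with SD, n = 16, fold changes with SE).

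Among transporters, SLC7A5 and SLC7A8, which carry large neutral amino acids such as tyrosine and L-DOPA, fell in β-cells by 3.18 ± 0.47 and 0.81 ± 0.13 on the log2 scale, and SLC29A4, a plasma membrane monoamine transporter, by 1.24 ± 0.15. SLC6A4, the serotonin transporter, rose by 2.83 ± 0.86 from a low level, 0.289 ± 0.313 CPM in α-cells and 2.32 ± 2.88 CPM in β-cells. ALDH1A1, an aldehyde dehydrogenase, fell from 2471 ± 480 to 1135 ± 171 CPM (log2 fold change -1.14 ± 0.09). Of the transcription factors of amine neurons, NR4A2, which is needed in dopamine neurons, fell from 185 ± 108 to 23.4 ± 13.1 CPM (-3.01 ± 0.21), NEUROD1 fell by 0.76 ± 0.21 and FOXA1 by 2.12 ± 0.70. HTR3A, a serotonin receptor subunit, fell from 0.433 ± 0.302 to 0.0336 ± 0.0654 CPM (CPM with SD, n = 16, fold changes with SE), and DESeq2 gave it no adjusted p. AANAT, an enzyme of melatonin synthesis, fell from 35.8 ± 28.4 to 27.1 ± 31.2 CPM. IDO1 fell in the fit, while its mean was higher in β-cells, and DESeq2 did not call it (adjusted p = 0.449). The adrenergic receptor ADRA2A was called with no UMI in α-cells and 0.237 ± 0.434 CPM in β-cells, so no fold is given, and DESeq2 did not call it (adjusted p = 0.514). All genes named here were called by edgeR.

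In the other contrasts the same list gave 2 genes that rose and 9 that fell of 35 tested in δ-cells against α-cells, beside 22.8% of all genes called, and 1 and 5 of 35 in PP-cells against α-cells, beside 6.32%. DESeq2 called 10 and 7 of the 35. Against α-cells SLC7A8 fell by 2.53 ± 0.17 in δ-cells and by 1.71 ± 0.21 in PP-cells, HTR1F, a serotonin receptor, by 2.31 ± 0.74 and 3.55 ± 1.04, and ALDH1A1 by 1.82 ± 0.11 in δ-cells. NKX2-2 rose in PP-cells by 1.02 ± 0.31 (edgeR, log2 fold changes with SE). Against β-cells, 2 genes of 35 rose and 4 fell in δ-cells, beside 18% of all genes called, and 5 rose and 6 fell in PP-cells, beside 15.6%, with 9 called by DESeq2 in each. NR4A2 rose in δ-cells by 1.83 ± 0.24 and in PP-cells by 3.33 ± 0.29. Of the dopamine receptors, 1 had enough UMIs to be tested and 0 passed.

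Old and young monkeys were compared within each type, and none of the listed genes passed for age in any cell type. In β-cells 0 of 6 tested genes passed, 0 had an unadjusted p under 0.05 and DESeq2 called 0, beside 0.045% of all 11101 genes called by edgeR. TH had a median of 190 CPM in old β-cells (83.5 to 1098 CPM, mean 337 ± 340 CPM, SD, n = 8) and of 202 CPM in young ones (32.9 to 458 CPM, mean 212 ± 172 CPM, SD, n = 8), with overlap. Its log2 fold change was 0.71 ± 0.55 (SE, edgeR adjusted p = 0.986), and 0.00 without old female 4. TPH1 had a median of 1.31 CPM in old and 16.9 CPM in young β-cells, overlapping, with means of 12.6 ± 23.4 and 14.7 ± 9.32 CPM (SD, n = 8 each). Its log2 fold change was -0.26 ± 1.02 (SE), and -2.03 without old female 1. The other 4 genes lay between -0.29 ± 0.42 (FEV) and 0.10 ± 0.22 (DDC).

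In α-cells 0 of 6 tested genes passed, beside 0% of 13486 genes, of which 920 had an unadjusted p under 0.05 and DESeq2 called 26. DDC came nearest. It stood at 73.5 to 222 CPM in young α-cells (mean 148 ± 54.4 CPM, SD, n = 8) and at 141 to 524 CPM in old ones (mean 286 ± 139 CPM, SD, n = 8), so that the upper part of the old range lay above every young value and the rest overlapped. The log2 fold change was 0.92 ± 0.26 (SE, unadjusted edgeR p = 0.00241, adjusted p = 0.523), and DESeq2 gave an adjusted p of 0.0798. Across the alternatives the adjusted p ran from 0.0798 to 0.872 and the log2 fold change from 0.77 to 1.09. TH in α-cells had a log2 fold change of 0.80 ± 1.03 (SE), which was -0.41 without old female 4 and 1.54 without young male 1. MAOB, at 98.8 ± 17.8 CPM in old and 90.9 ± 16.0 CPM in young α-cells (SD, n = 8 each), had a log2 fold change of 0.10 ± 0.12 and FEV one of 0.02 ± 0.23 (SE).

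**Figure D5:**
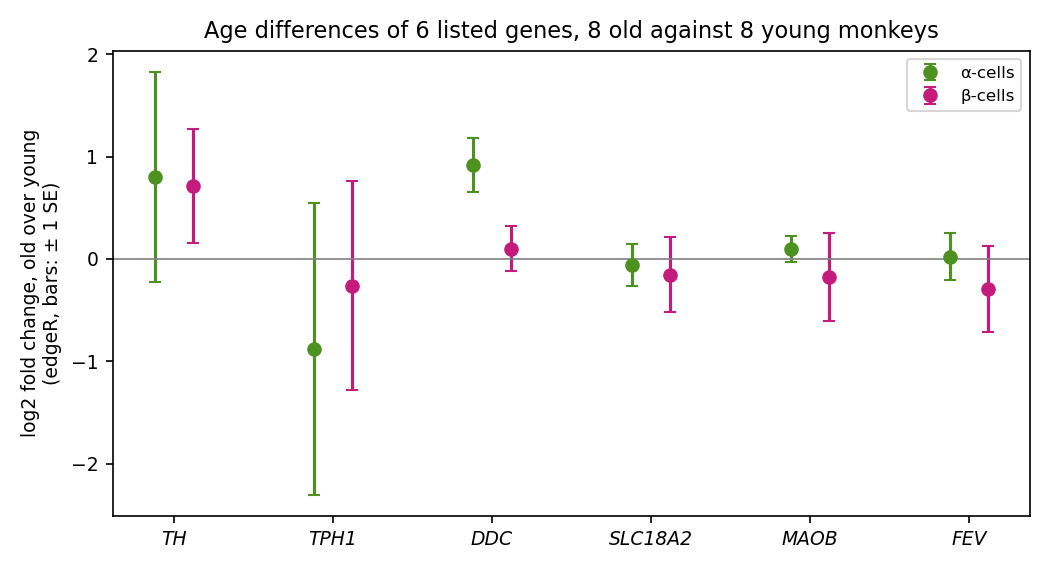
Log2 fold change between old and young monkeys with a bar of 1 standard error on each side (edgeR) for the listed genes in β-cells and α-cells, where 0 means equal levels. DDC in α-cells, at 0.92, lies farthest from 0 relative to its error, and none has an adjusted p under 0.05.

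In δ-cells 0 of 5 tested genes passed for age, beside 0% of 7405 genes (289 with an unadjusted p under 0.05, DESeq2 3), and in PP-cells 0 of 3, beside 0% of 6568 (394 and 1). With 4 old monkeys against 7 young ones for δ-cells, the errors were wide, as in TH at -2.34 ± 1.36 and DDC at 1.46 ± 0.89 (log2 fold change, SE). In PP-cells DDC was at 1.10 ± 0.70 and FEV at 0.87 ± 0.91 (SE). The pathway list gave 0 calls for age in edgeR and DESeq2 in each of the 4 types.

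MAOB lies on the X chromosome, so males and females were compared as well. MAOB differed between males and females by -0.02 ± 0.43 in β-cells and by -0.09 ± 0.12 in α-cells (log2 fold change of males against females, SE). No listed gene passed for sex: 0 of 6 in β-cells, beside 0% of 11101 genes (444 with an unadjusted p under 0.05, DESeq2 16), and 0 of 6 in α-cells, beside 0% of 13486 (783 and 31). DDC in β-cells, at -0.52 ± 0.22 (SE, unadjusted edgeR p = 0.0256, adjusted p = 1), and SLC18A2 in α-cells, at 0.53 ± 0.21 (SE, unadjusted edgeR p = 0.0206, adjusted p = 0.797), came nearest. No difference of the age effect between sexes was detected for any listed gene, with 4 monkeys per age and sex. In β-cells 0 of 6 were called, beside 0% of 11693 genes (495 with an unadjusted p under 0.05, DESeq2 2). In α-cells 0 of 6 were called, beside 0.00707% of 14146. TH in α-cells had the lowest p of these, with an interaction of -3.44 ± 1.66 (SE, unadjusted edgeR p = 0.0535, adjusted p = 0.877). TPH1 in α-cells came next, at -4.53 ± 2.19 (SE, unadjusted edgeR p = 0.0543, adjusted p = 0.877). Errors of this size leave large differences between the sexes possible.

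The genes whose levels ran most like those of TH, DDC and FEV were ranked over the 49 sums per monkey and type, among 8215 genes with a mean of at least 10 CPM. The sums of 1 monkey share its libraries and depth, so the correlations are a description. For TH these were IAPP (Spearman's rho 0.855), the retinoid receptor RXRG (0.819), GAD2, which makes GABA (0.789), CD24 (0.783) and HADH (0.778). Among those of FEV were CYSTM1 (0.814), SPINT2 (0.804), KIF19 (0.796) and IRX2 (0.787). For DDC the likeness was lower, with PSAP at 0.678, an Ensembl gene without a symbol at 0.668, SCRIB at 0.660, EEF1A1 at 0.657 and SLC29A1 at 0.653.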

How the data were processed

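Single-cell libraries were made with a modified STRT protocol. Per the labels and the methods, reads were trimmed and aligned by the authors to Macaca_fascicularis_5.0 (CASAVA 1.8 and TopHat2 2.0.12 are named in the submitters' processing notes) and the authors deposited whole-number UMI counts per gene and cell, without normalization or pooling. All columns belonged to a labelled library (0 left unmapped). No coordinates or sequences are printed, because the annotation used here belongs to a different assembly.

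Cells exceeding 800 genes and 10000 UMIs were typed by their highest hormone. Doublets were not called. UMI counts were summed per monkey and type where there were at least 5 cells, and the sums entered edgeR 4.0.16 (TMM, filterByExpr, quasi-likelihood test, Benjamini-Hochberg adjusted p under 0.05 over all genes tested) in R 4.3.3, with sex as covariate for age, age for sex, and monkey as block between types and between TH-positive (at least 1 TH UMI) and TH-negative β-cells. Monkeys are separate animals and the replicates. The fit was tested on simulated data. Shares were compared with an exact permutation test (SciPy 1.17.1). Binomial intervals are exact at 95%, limits of zero counts use 3 counts, and both cover counting error only. CPM per cell type has the precision of the number of cells and UMIs behind it, with 20719761 to 34053080 UMIs per monkey.

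The members and lists were chosen with earlier results of these data known. Not every listed gene is given for every comparison, and the tested ones left out did not pass in edgeR. Of the pathway list, up to 3 genes per direction and role with the largest log2 fold change among those called are named, of which the text gives the contrasts with β-cells in part. A few genes that these rules name are not reported here. Alternatives were DESeq2 1.42.0, no filter on low counts, no sex term, a replicate block, no monkey block, stricter cells (over 2000 genes and 20000 UMIs), thinning to 10000 UMIs, a highest hormone at least 2 times the next, leaving out cells above the 95th percentile (158236 UMIs), higher TH thresholds and leaving out each monkey.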

Additional observations from a re-analysis of the deposited data

Results flagged for a closer look

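In 46 groups of 4 to 8 monkeys, 10 values stood apart from the rest of their group by Dixon's criterion. The criterion flags about 1 in 20 groups by chance where groups are independent and values normally distributed. The groups here share monkeys and their levels were skewed, so that rate does not apply to them. Old female 4 stood apart for TH in 3 of them. Its TH level was 1098 CPM in β-cells, where the next old monkey had 530 CPM, and 36.3 CPM in α-cells, where the next had 4.76 CPM, and 83.7% of its α-cells had a TH UMI, where the next had 24.7%. The level and the share in α-cells rest on the same UMIs. Among young monkeys, young male 1 stood apart for TH in α-cells at 14.4 CPM, with the next at 3.73 CPM.

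Old female 1 stood apart for TPH1 in 3 cell types of the old monkeys, with 64.7 CPM in β-cells (next 29.9 CPM), 3.12 CPM in α-cells (next 0.721 CPM) and 51.4 CPM in PP-cells (next 7.34 CPM, 8 cells and 25 UMIs). TPH1 in α-cells of young male 3 was 8.60 CPM, with the next young monkey at 1.18 CPM, and 1 cell held 71.2% of those UMIs. FEV in β-cells of young female 1 was 25.7 CPM (57 cells, 99 UMIs), with the next young monkey at 12.9 CPM. MAOB in PP-cells of old male 4 was 54.1 CPM (6 cells, 19 UMIs), with the next old monkey at 16.4 CPM. The part of single cells, depth or library in these values was not tested, beyond the counts given.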

How the results depend on the processing

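Over the 24 pairs of monkeys with the same number, the correlation of deviations ran from -0.17 to 0.12 in β-cells and from -0.10 to 0.20 in α-cells, so the pairing was not taken as shown. As a hint the other way, 8 of 16 monkeys in each type correlated best with a monkey of their own number, where 72 of the pairs compared had different numbers. With a replicate block, 5 genes were called for age in β-cells and 0 in α-cells, and TH in β-cells had a log2 fold change of 0.76. Against 5 genes called for age in β-cells, DESeq2 called 41, no filter on low counts 21, and thinned cells and leaving out the cells above the 95th percentile 3 each. For age, DESeq2 called 26 genes in α-cells, 3 genes in δ-cells and 1 gene in PP-cells, and it called 16 for sex in β-cells, 31 for sex in α-cells, and 2 and 8 for age by sex in β- and α-cells. For age in PP-cells, no sex term gave 1 call and the 2 times hormone rule 9. TH-positive against TH-negative β-cells gave 0 calls by DESeq2 and without cells above the 95th percentile, 3 with at least 2 TH UMIs, 9 thinned and 7 without a filter, where the usual fit gave 1. Leaving out 1 monkey gave 2 to 8 calls for age in β-cells (2 without young male 1 or 2, 3 without old male 1 or 3 or young female 3, 8 without old male 4), 0 to 2 for sex in β-cells (2 without young male 2, 1 without old female 3), 0 to 1 for sex in α-cells (1 without young male 3 or young female 4), 0 to 1 for age by sex in β-cells (1 without young male 2 or old female 1), 1 to 2 for age by sex in α-cells (2 without young male 2), 0 to 3 for TH-positive β-cells (3 without old male 4 or young female 1, 2 without young female 3), and a difference in the TH-positive share of α-cells of -0.173 to 12.5 percentage points, where the lowest is without old female 4.

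The following log2 fold changes changed sign, none of them past the threshold. For age in β-cells, TPH1 was 0.0755 and SLC18A2 0.0331 under the 2 times hormone rule, and FEV 0.0218 in thinned cells. Without 1 monkey, TPH1 ran from -2.03 to 0.0232 and SLC18A2 from -0.26 to 0.0589 in β-cells, and TH from -0.41 to 1.54, TPH1 from -2.08 to 0.0324, SLC18A2 from -0.17 to 0.0256 and FEV from -0.11 to 0.16 in α-cells. For age in PP-cells under the 2 times hormone rule, DDC was -0.67 and FEV -0.0571. For δ-cells against β-cells, SLC18A2 was 0.13 by DESeq2, 0.12 without the monkey block and 0.0466 under the 2 times hormone rule, and MAOB was 0.0056, 0.0332 and 0.11 by DESeq2, thinned and under that rule. For TH-positive β-cells, TPH1 was -0.31 by DESeq2, SLC18A2 was -0.0107 by DESeq2, -0.29 under the 2 times hormone rule and -0.0796 without cells above the 95th percentile, and without 1 monkey TPH1 ran from -0.39 to 0.41, DDC from -0.21 to 0.0332 and SLC18A2 from -0.23 to 0.22. The cause of these changes was not tested. Without old female 4, chosen after seeing the data, TPH1 and MAOB kept their side of the threshold between β- and α-cells. Depth limits the low genes most: TPH2 and SLC18A1 could not be tested, and δ- and PP-cells number 112 and 74.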
